A study of Mus musculus with 9 samples.

Results

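The comparison covered here is 6 days of adipogenic differentiation against no differentiation in primary mouse stromal vascular fraction (SVF) cells, the mixed population left when mature adipocytes are removed from digested fat. It takes 6 of the 9 libraries of the series, with 3 libraries of undifferentiated cells and 3 of cells differentiated with vehicle, and every gene that reached 5 counts in 3 or more of those libraries. That rule kept 16820 of 32285 gene identifiers, and 282 of the genes kept had a third-highest count of exactly 5, while 360 of those left out had one of exactly 4. The cells came from the subcutaneous white fat of wild-type neonatal mice, and cells of each animal were plated apart. The labels do not tie a library to an animal, so p-values measure the spread between these libraries. Differentiated cells were induced at confluency with insulin, dexamethasone and IBMX and then maintained with insulin, T3, troglitazone and rosiglitazone, with DMSO as vehicle, until day 6. Of the undifferentiated cells the labels give only that word, and the day of their harvest is not given in the sources used here. The effect of differentiation and the direct effect of these agents cannot be told apart in this design. No sorting step is given for the cells used for RNAseq, so CD45+ and CD31+ cells could be present. The remaining 3 libraries, differentiated with mizoribine, entered no comparison below.

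Adipogenesis is the commitment of fibroblast-like progenitors to fat cells. In cultured preadipocytes the inducing hormones first raise the early factors C/EBPβ and C/EBPδ, which then switch on PPARγ and C/EBPα, and these hold the adipocyte state by acting on each other's genes and on the genes of lipid storage and hormone secretion. While this happens the cells leave the cell cycle, lose the stress fibers and stiff fibrillar matrix of a fibroblast, round up, and surround themselves with a basement membrane of type IV collagen and laminin. Signals such as Wnt, Hedgehog, TGF-β and YAP/TAZ are known to hold progenitors back from this path.

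Total counts were 42217231 to 55288455 in undifferentiated and 28760721 to 50262228 in differentiated libraries. The first principal component of log2 CPM (counts divided by the library size and scaled to a common total) held 94.1% of the variance and separated the groups. The second held 3.00% and set differentiated replicate 1, the shallowest library, at -40.8 against 13.7 and 28.0 for the other differentiated replicates. Genes encoded by mitochondrial DNA took 0.863% ± 0.027 (SD, n = 3) of counts in undifferentiated and 4.35% ± 0.60 in differentiated cells, and the lowest differentiated library, at 3.82%, was above the highest undifferentiated one, at 0.891% (exact permutation test, two-sided, p = 0.1, the smallest that 3 against 3 libraries allow). The 100 most abundant genes took 31.4% ± 0.29 and 32.5% ± 0.25 of counts, a difference of 1.12 percentage points (exact permutation p = 0.1), and without the mitochondrially encoded genes the difference was -1.17 points.

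Differentiation changed most of the transcriptome. At an adjusted p below 0.05 in edgeR's quasi-likelihood test, 13096 genes were called (77.9% of genes tested), of which 6464 were higher (38.4%) and 6632 lower (39.4%) in differentiated cells. Calls that also passed a fold change of 2 numbered 3041 higher (18.1%) and 3893 lower (23.1%). Past 8-fold there were 838 rises and 1114 falls, and past 32-fold 361 rises and 247 falls. Between the groups, the values of 1 group lay entirely above those of the other for 13709 genes (81.5%), so a gene without overlap was the common case. Over all genes the median was -0.02 on the log2 scale. Scaling by total counts alone gave a median of -0.25 and a split of 5077 higher to 8171 lower, and upper quartile scaling a median of -0.15, so small fold changes depended on the scaling. Without differentiated replicate 1, 13524 genes were called. Since most genes were called, the lists below are read by direction, by size and against these shares. Genes named within a list reached a mean of 5 CPM in 1 group unless their values show otherwise, and rarer members can have larger fold changes. Genes such as Cebpa, Cebpb, Cebpd, Mlxipl, Kcnk3, Elovl3, Mt2, Col4a1, Col15a1, Timp3, Eln and Itga4 overlap a gene on the opposite strand, and their counts are uncertain to that extent.

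**Figure D1:**
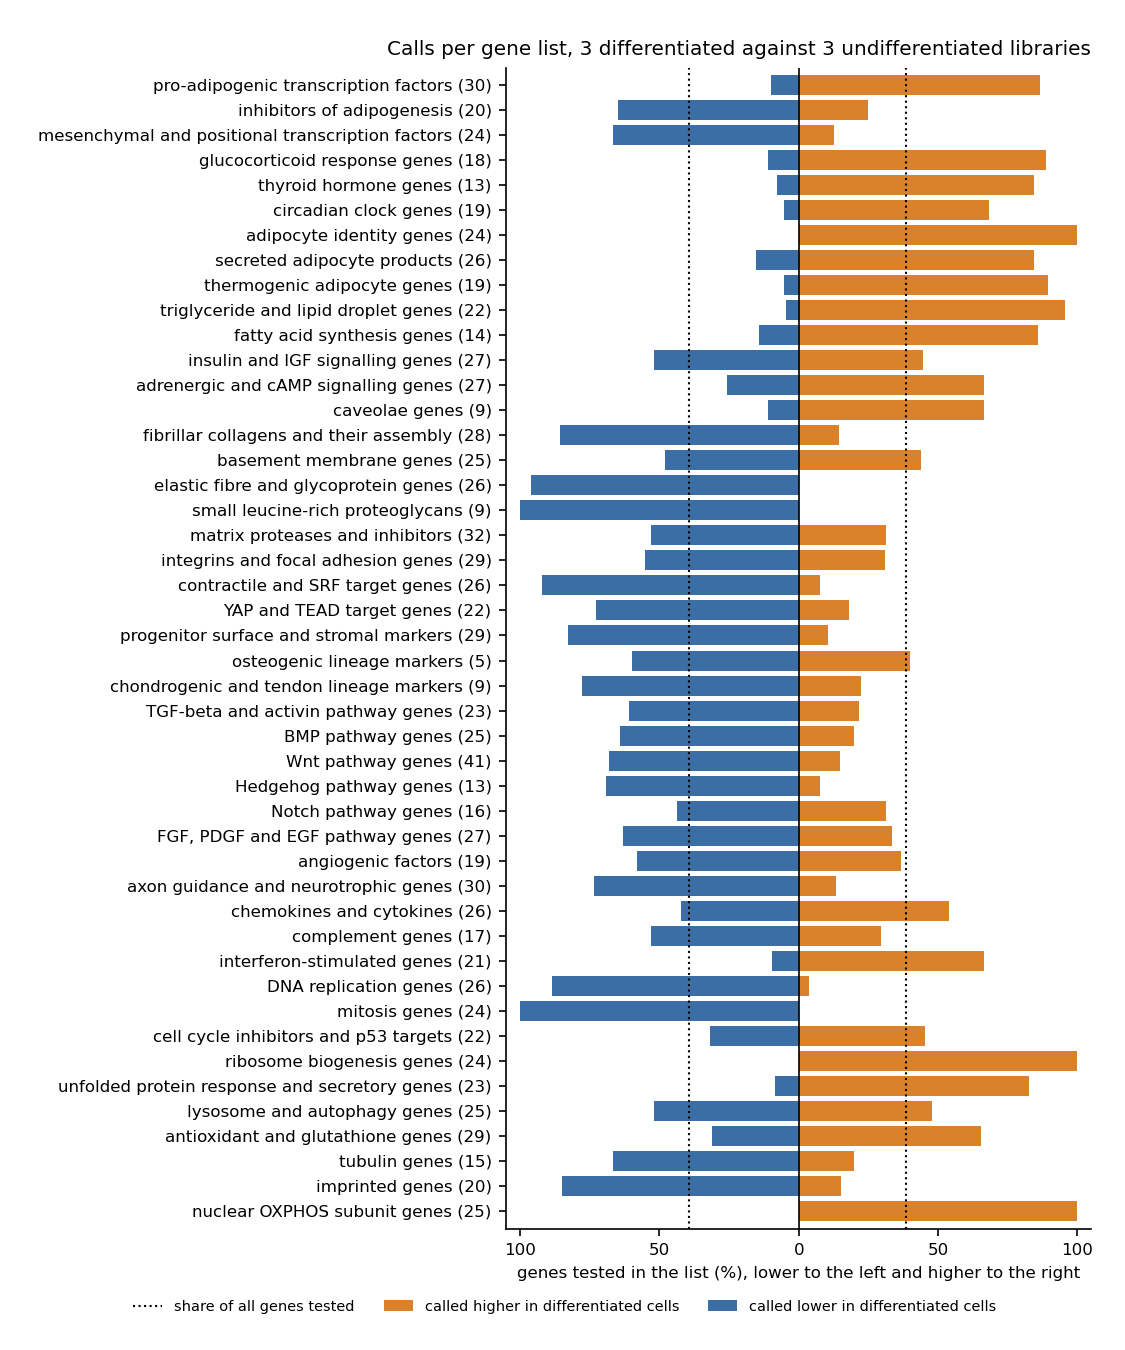
Share of the genes tested in each gene list with 5 or more genes tested, other than markers of other cell types, that were called higher (orange, right) or lower (blue, left) in 3 differentiated against 3 undifferentiated libraries, with the number of genes tested in parentheses. Dotted lines mark the shares over all genes tested, 38.4% higher and 39.4% lower, and the adipocyte identity, ribosome biogenesis and OXPHOS lists lie wholly to the right, the mitosis and small leucine-rich proteoglycan lists wholly to the left, and basement membrane and insulin and IGF genes on both sides.

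The core regulators of fat cell identity rose with little spread between libraries. Pparg (chromosome 6), the nuclear receptor at the center of adipogenesis, was at 7.77, 7.12 and 8.74 CPM in undifferentiated and 164, 177 and 185 CPM in differentiated cells, a log2 fold change of 4.47 ± 0.088 (SE, adjusted p = 2.7e-09). Cebpa, its partner, went from 56.02, 55.03 and 54.72 CPM to 546, 549 and 618 CPM (log2 fold change 3.37 ± 0.062). The undifferentiated and differentiated values were far apart for both genes, and Cebpa started from the higher level. The early factors changed less at day 6, with Cebpb at 94.4 to 97.7 CPM before and 269.9 to 333 CPM after (log2 fold change 1.64 ± 0.075) and Cebpd at 66.9 to 74.6 and 85.9 to 97.3 CPM (0.38 ± 0.062). The call for Cebpd was lost when libraries were scaled by total counts alone.

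Of 30 pro-adipogenic transcription factors, 26 rose and 3 fell, 20 of the rises passed 2-fold, and the list had a median of 2.23 on the log2 scale. The largest rises were of Mlxipl (ChREBP, the carbohydrate-sensing activator of lipogenic genes), from 0.0436 to 0.088 CPM up to 74.5 to 79.8 CPM, Ppargc1a (the PGC-1α coactivator of mitochondrial genes; log2 fold change 7.22 ± 0.21), Zbtb16 (6.83 ± 0.10) and Ppara (6.70 ± 0.12). The commitment factors Zfp423 and Ebf2 were already present in undifferentiated cells, at 8.997 to 9.289 and 7.54 to 8.65 CPM, and rose by 2.63 ± 0.072 and 2.61 ± 0.073 on the log2 scale. The members that fell, among them Klf4 (log2 fold change -0.47 ± 0.075) and Klf5 (-0.93 ± 0.13), are factors known to act early after induction, and Stat5b was not called (-0.01 ± 0.057).

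Among 20 inhibitors of adipogenesis, 13 fell and 5 rose. Gata2, a GATA factor that represses Pparg, fell from 6.40 to 6.91 CPM to 0.756 to 1.05 CPM, and Hic1 (log2 fold change -2.62 ± 0.12), Runx1t1 (-2.55 ± 0.093) and Sox9 (-2.53 ± 0.18) fell by similar amounts. Ddit3 (CHOP), a stress-induced C/EBP relative, went the other way, from 24.2 to 27.3 CPM to 101 to 109.6 CPM, and so did Egr1 (1.31 ± 0.091). Dlk1 (Pref-1), the classical preadipocyte marker, fell only by 0.60 ± 0.11 on the log2 scale, from 107 to 133 CPM to 68.3 to 85.8 CPM. Wnt10b, a Wnt ligand known to block adipogenesis, was below 1 CPM in all 6 libraries with overlapping groups (log2 fold change -0.06 ± 0.26, adjusted p = 0.89).

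Transcription factors that mark mesenchymal identity and body position were mostly lower, with 16 of 24 falling and 3 rising (median log2 fold change -1.05). Foxp2 (-3.15 ± 0.12), Prrx2 (-2.93 ± 0.21) and Osr1 (-2.40 ± 0.071), the last a factor of connective tissue progenitors, fell, and Foxc1 (1.57 ± 0.12) rose. Of 31 Hox genes, 23 fell and 3 rose, with a median of -0.88. Hoxd3 fell by 2.89 ± 0.25 on the log2 scale, and Hoxa4 rose from 1.51 to 1.66 CPM to 6.06 to 6.97 CPM.

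The hormones of the media have their own known target genes, and these were mostly higher. Dexamethasone was in the induction medium but not in the maintenance medium used until day 6, so glucocorticoid response genes were read after its removal. Of 18 glucocorticoid response genes, 16 rose and 2 fell (median log2 fold change 2.40), and their summed level went from 501 to 534 CPM to 5598 to 6211 CPM. Angptl4, a secreted inhibitor of lipoprotein lipase, went from 13.9 to 19.6 CPM to 630.0 to 724 CPM, and Mt2, a metallothionein, from 42.6 to 50.1 CPM to 1877 to 2149 CPM. Lcn2 (lipocalin 2) was at 367, 233 and 136 CPM in differentiated replicates 1, 2 and 3, against 0.55 CPM or less before, a spread much wider than that of Mt2. Sgk1 (-1.23 ± 0.15) and Cdkn1c (-1.99 ± 0.12), both known as dexamethasone-inducible elsewhere, fell.

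Of 13 thyroid hormone genes, 11 rose and 1 fell. The one that fell was the receptor gene Thra (-1.10 ± 0.12), which overlaps Nr1d1 on the other strand, and the strand setting of the counting is not given in the sources used here. Klf9, a target shared by thyroid hormone and glucocorticoid, rose from 40.1 to 42.4 CPM to 233 to 277 CPM. Thrsp (Spot 14), a lipogenic thyroid hormone target, held 1 count over the 3 undifferentiated libraries and 202 to 261 CPM in differentiated ones, a ratio of 33353 with a 95% counting interval of 5986 to 1317440. Of 19 clock genes, 13 rose and 1 fell, with a median of 0.70. Per2 (1.83 ± 0.12), Nfil3 (1.92 ± 0.087) and Bhlhe40 (2.06 ± 0.23) rose, and Bhlhe41 fell (-2.07 ± 0.11). The largest fold change of the list, 12.16 on the log2 scale, belonged to a gene not named here. In undifferentiated libraries 1 member of the list had no count. Dbp (0.17 ± 0.17), Tef (-0.12 ± 0.15), Per3 (-0.07 ± 0.15), Nr1d2 (-0.05 ± 0.081) and Hlf (-0.42 ± 0.18) were not called. Each group was sampled once, so a clock phase and a level cannot be told apart.

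Genes that define the adipocyte went from near nothing to among the more abundant messages. All 24 adipocyte identity genes tested rose, by a median of 9.66 on the log2 scale, and their share of counts went from 0.0825% ± 0.0046 (SD, n = 3) to 3.02% ± 0.062. In bulk RNA, more cells of a type and more RNA per cell cannot be told apart. Adipoq (chromosome 16), the gene of adiponectin, held 1 count in the 3 undifferentiated libraries together and was at 679.7, 639.9 and 649 CPM after differentiation, a ratio of 98904 (95% counting interval 17751 to 3906550). Cidec, which enlarges lipid droplets, held no count before and 1646, 1719 and 1791 CPM after, at least 87408-fold higher when 3 counts are taken as the limit for the group. Car3, the carbonic anhydrase of fat and muscle, was at 622, 949 and 1172 CPM, against 2 counts before. Fabp4, the fatty acid carrier of fat cells, started at 4.69 to 4.99 CPM and reached 8677 to 9356 CPM. The label of all 6 libraries names primary adipocytes, but in the undifferentiated ones the defining markers Adipoq, Cidec, Retn and Car3 each held at most 2 counts in all. Lpl, the lipoprotein lipase gene, made up most of the level of the list there, with a mean of 653 CPM.

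The secreted products show the same direction with more spread. Of 26 tested, 22 rose and 4 fell, all over 2-fold. Retn (resistin) held 2 counts before and 310.2 to 379 CPM after. Rbp4 (retinol-binding protein) was at 0.0654 CPM or less before and at 159, 283 and 340.4 CPM after, and Cfd (adipsin) went from 0.0436 CPM or less to 48.9, 41.2 and 35.7 CPM. Lep, the gene of leptin, had 0 counts in undifferentiated libraries and 0, 3 and 4 in differentiated ones and did not reach the count minimum, so its change was not detectable at this depth. Igf1 fell from 366 to 390.2 CPM to 66.6 to 73.6 CPM, and the chemokine Cxcl14 fell by 3.54 ± 0.13 on the log2 scale. The summed level of the list was 8294, 6843 and 5852 CPM in differentiated replicates 1, 2 and 3 against 837 to 859 CPM before, and the counts of 22 and 4 were the same without replicate 1.

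**Figure D2:**
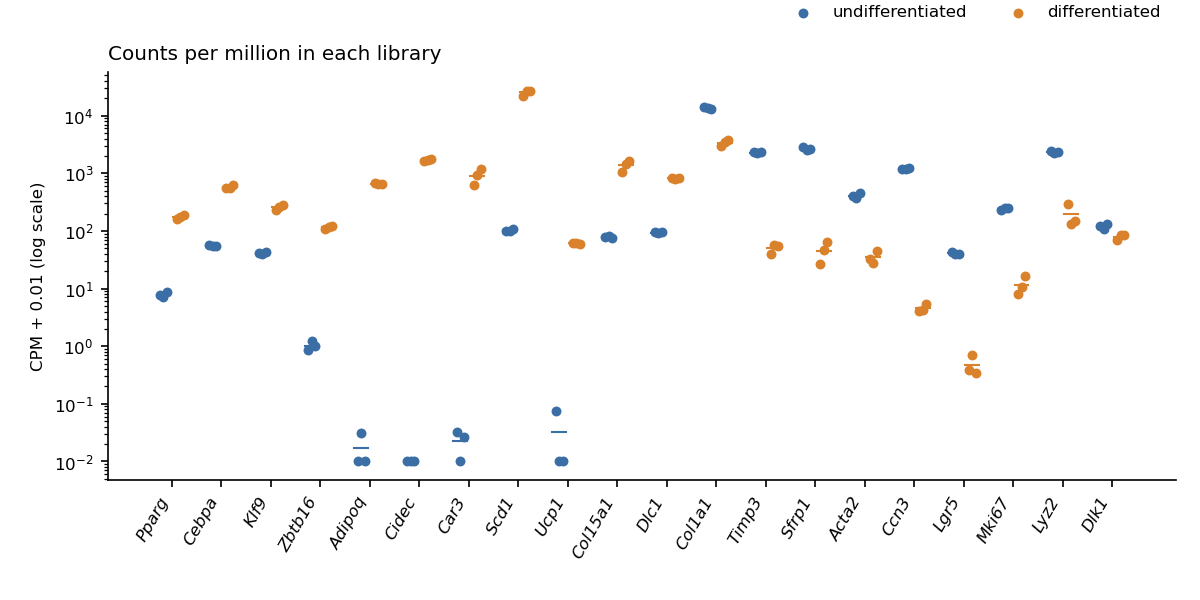
CPM plus 0.01 on a log axis for 20 named genes in each of 3 undifferentiated (blue) and 3 differentiated (orange) libraries, with the group mean as a bar. Points at the bottom of the axis are libraries without a count, as for Cidec in all 3 undifferentiated libraries. The groups overlap for none of these genes, as was the case for 81.5% of all genes tested.

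Lipid storage genes are given only in outline. Of 22 triglyceride and lipid droplet genes 21 rose and 1 fell, and of 14 fatty acid synthesis genes 12 rose and 2 fell. Plin1, the perilipin that coats large droplets, went from 0.116 to 0.264 CPM to 1575 to 1647 CPM, while Plin3, the droplet coat found in most cell types, fell by 0.54 ± 0.054 on the log2 scale. Scd1, the stearoyl-CoA desaturase, gained more CPM than any other gene, from 99.4 to 107 CPM to 22378, 27211 and 27308 CPM. Elovl5 (-0.29 ± 0.043) and Elovl6 (-0.41 ± 0.074), elongases of the same pathway, fell slightly. All 25 nuclear genes in the list of OXPHOS subunits rose, with a median of 2.68, as did 74 of 75 genes of mitochondrial ribosomal proteins.

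Cells from subcutaneous white fat also switched on genes of thermogenic fat. Of 19 thermogenic genes, 17 rose, 1 fell, and Lhx8 was not called (0.10 ± 0.11). Ucp1, the uncoupling protein of brown and beige fat, held 3 counts over the undifferentiated libraries and was at 62.5, 61.3 and 58.5 CPM in differentiated ones. Kcnk3 went from 0.044 CPM or less to 189 to 229.8 CPM, Elovl3 reached 142 to 153 CPM, and Cox8b 72.9 to 96.9 CPM from 1 count. The values of each gene lay close together in the differentiated libraries. Ucp1 was therefore a small message there beside Plin1.

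Genes of insulin, IGF, adrenergic and cAMP signalling changed in both directions. Of 27 insulin and IGF genes, 12 rose and 14 fell. Slc2a4 (GLUT4), the insulin-responsive glucose transporter, went from 0.132 to 0.196 CPM to 195 to 216 CPM, and Trarg1, a regulator of GLUT4 trafficking, from 0.479 to 0.704 CPM to 360.5 to 406 CPM. The growth factor Igf2 (-3.33 ± 0.068), its binding protein gene Igfbp2 (-3.10 ± 0.098) and the receptor adaptor Grb14 (-2.18 ± 0.12) fell. Of 27 adrenergic and cAMP genes, 18 rose and 7 fell. Adrb3, the β3-adrenergic receptor, went from 0.083 to 0.198 CPM to 126 to 174 CPM, and Hcar1, the lactate receptor, from 0.05 CPM or less to 14.8 to 17.6 CPM. Adora1, the adenosine A1 receptor that restrains lipolysis, had no count before and 149, 102 and 81.9 CPM after (at least 5303-fold higher), with an overlap with Mybph on the other strand. The inhibitory G protein gene Gnai2 (-1.55 ± 0.058) and the cyclase Adcy3 (-1.22 ± 0.096) fell. Of 9 caveolae genes, which shape the small membrane pits that are dense in fat cells, 6 rose and 1 fell, with Cav1 going from 38.1 to 41.1 CPM to 682 to 761 CPM.

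Extracellular matrix lists fell in summed level, except for the basement membrane list, which rose. The mean sum over all collagen chain genes went from 44026 to 24425 CPM. That over elastic fiber and glycoprotein genes went from 35463 to 6901 CPM, and that over small leucine-rich proteoglycans from 6437 to 1536 CPM. Of 28 genes of fibrillar collagens and their assembly, 24 fell and 4 rose (median log2 fold change -1.32), and their summed level went from 46323 to 49480 CPM to 14044 to 16315 CPM. Col1a1, the main collagen of fibrous tissue, was at 14021, 13441 and 12889.5 CPM before and 2998, 3474 and 3800.3 CPM after, the largest loss in CPM of any gene. Col14a1 (-5.11 ± 0.13), Col11a1 (-4.97 ± 0.064), the collagen prolyl hydroxylase gene P4ha3 (-4.50 ± 0.17) and Col12a1 (-3.72 ± 0.14) fell more steeply. Col5a3 rose from 69.9 to 75.6 CPM to 436 to 568 CPM, and P4ha2, a prolyl hydroxylase of the same family as P4ha3, rose by 1.47 ± 0.058. Thus single members of the same enzyme and collagen families moved in opposite directions.

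Glue and fiber proteins fell. Of 26 elastic fiber and glycoprotein genes, 25 fell, and Ltbp3 was not called (-0.08 ± 0.071). Mfap4 (-4.79 ± 0.19), Ltbp2 (-4.26 ± 0.13), Thbs3 (-4.01 ± 0.072) and Eln, the gene of elastin (-3.95 ± 0.27), fell most, and the abundant Fn1 (fibronectin) went from 6652 to 6956 CPM to 1867 to 2021 CPM and Thbs1 from 8819 to 9199.5 CPM to 1381 to 1578 CPM. All 9 small leucine-rich proteoglycans fell over 2-fold, with a median of -3.38. Aspn, one of them, was at 178, 191 and 180.4 CPM before and at 6.21, 11.0 and 15.8 CPM after, lowest in differentiated replicate 1, as were Fmod at 8.32 CPM and Ogn at 4.63 CPM.

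Basement membrane genes went both ways, by isoform. Of 25, 11 rose and 12 fell, near the shares over all genes, but the summed level of the list went from 7448 to 8005 CPM to 15036 to 15527 CPM, as the abundant members were those that rose. Col4a1, a chain of the common type IV collagen, went from 1344, 1212 and 1387 CPM to 3879, 3945 and 3972 CPM, and Lama4, the laminin α chain typical of fat and vessels, from 358 to 380.2 CPM to 1211 to 1667 CPM. Col15a1, a collagen next to basement membranes, went from 74.6 to 80.4 CPM to 1048, 1445 and 1627 CPM. Lamb3 rose by 4.63 ± 0.20 from below 1 CPM. Lama3 (-6.32 ± 0.24), Lama5 (-2.14 ± 0.13) and Col4a5 (-2.04 ± 0.093), other laminin and type IV collagen chains, fell, as did Nid2 (-1.24 ± 0.11). Of all 38 collagen chain genes tested, 13 rose and 23 fell, and Col8a2 fell most, from 154 to 168 CPM to 0.753 to 1.51 CPM.

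**Figure D3:**
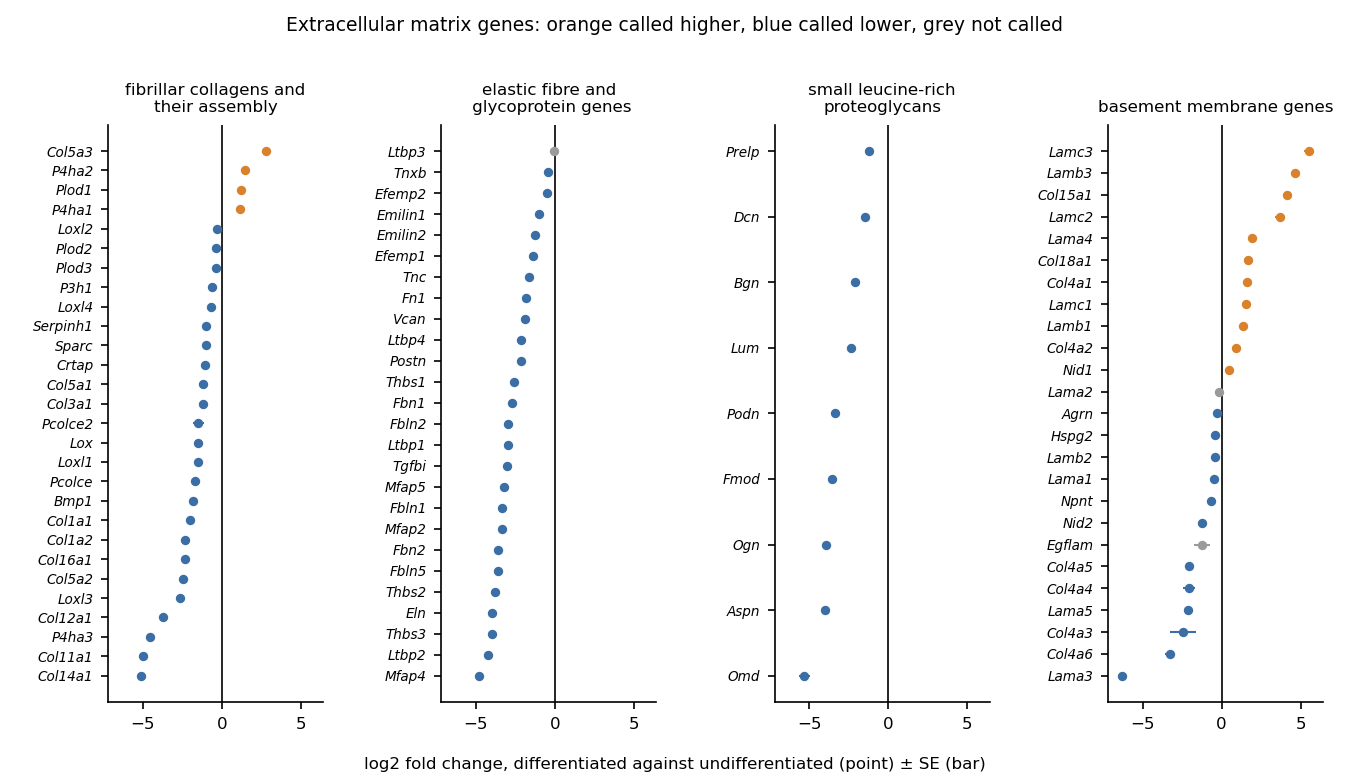
Log2 fold change of each gene of 4 extracellular matrix lists, differentiated against undifferentiated cells, as a point with its standard error as a bar. Orange points were called higher, blue lower and grey not called, and the basement membrane list has 11 genes called higher and 12 lower, against 4 and 24 in the fibrillar collagen list, which also has points on both sides of 0.

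The enzymes and receptors of the matrix shifted too. Of 32 matrix proteases and inhibitors, 17 fell and 10 rose. Timp3, an inhibitor of metalloproteases, went from 2215 to 2349 CPM to 39.4 to 56.1 CPM, and its relative Timp2 from 824 to 855 CPM to 84.75 to 100.01 CPM. The urokinase gene Plau fell by 4.01 ± 0.088 and Mmp16 by 5.31 ± 0.20 on the log2 scale. Mmp3 was at 253, 176 and 83.2 CPM after differentiation and at 4.91 to 8.67 CPM before. Of 22 Adamts and Adamtsl genes, 15 fell and 2 rose. Of 29 integrin and focal adhesion genes, 16 fell and 9 rose, with collagen-binding Itga11 at 510.1 to 539 CPM before and 14.7, 31.8 and 35.5 CPM after, fibronectin-binding Itga4 falling by 4.87 ± 0.28, and laminin-binding Itga7 rising from 5.10 to 6.27 CPM to 87.5 to 93.9 CPM. Among the members named, receptors for collagen and fibronectin thus fell and a laminin receptor rose. Itga4 was at 5.38, 1.94 and 2.66 CPM in differentiated replicates 1, 2 and 3. The part of the macrophage signal given below in its fall was not tested.

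The contractile apparatus was lower almost throughout. Of 26 contractile and SRF target genes, 24 fell and 2 rose, with a median of -1.74. Acta2, smooth muscle actin, was at 402, 375 and 452 CPM before and 32.3, 28.0 and 44.4 CPM after (log2 fold change -3.55 ± 0.17). Cnn1 (-4.29 ± 0.23), Myl9 (-4.26 ± 0.12) and Lmod1 (-3.59 ± 0.16) fell as much or more. The genes that rose were Srf itself (0.40 ± 0.058), the transcription factor of this set, and Des, desmin (1.20 ± 0.21). Of 15 tubulin genes, 10 fell and 3 rose, with Tubb3 (-2.88 ± 0.094), Tubb2b (-2.41 ± 0.096) and Tuba1a (-2.41 ± 0.049) lower and Tubb4b (0.91 ± 0.042) and Tubg1 (0.87 ± 0.055) higher. Of 35 kinesin genes, 24 fell and 3 rose, and Kif26b fell from 651 to 679 CPM to 3.58, 7.97 and 10.7 CPM.

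YAP and TAZ, coactivators that respond to stretch and stiff matrix, act through TEAD factors. Of 22 YAP and TEAD target and pathway genes, 16 fell and 4 rose (median -1.12). Ccn3 was at 1202, 1171 and 1237 CPM before and at 4.03, 4.32 and 5.35 CPM after, a log2 fold change of -8.03 ± 0.11. Other CCN matricellular genes fell as well, Ccn5 by 4.84 ± 0.32 and Ccn4 by 3.54 ± 0.078. The tissue factor gene F3 went from 604 to 639.9 CPM to 42.9, 59.7 and 77.6 CPM. Yap1 (-0.04 ± 0.079) and Amotl2 (0.07 ± 0.067) were not called, and Dlc1, a regulator of the actin cytoskeleton, rose from 90.8 to 94.6 CPM to 808 to 842 CPM.

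Sequence around the start sites was read for the lists that moved together. RefSeq promoter windows of GRCm38.p6, each from 250 bases before to 50 after a start, were matched by symbol to 12227 of the genes tested, with 15581 windows in all. The 8 motifs were searched on both strands, and shares are descriptions with no test. The TEAD motif CATTCC was in 14 of 19 windows of the YAP and TEAD list (73.7%), where a gene with several starts has several windows, and in 12.7% of all windows. The E2F motifs TTTCGCGC, TTTGGCGC and TTCCCGCC were in 54.5% of windows of DNA replication genes and 4.87% of all. The NF-Y motif CCAAT was in 78.9% of windows of mitosis genes, 88.9% of unfolded protein response and secretory genes, 68.8% of fatty acid synthesis genes and 37.1% of all windows. The CArG box, bound by SRF, was in 4 of 26 windows of the contractile list (15.4%) and 1.32% of all. The C/EBP motif TTGCNNCAA was in 3 of 13 windows of thyroid hormone genes (23.1%) and 1.59% of all. It was in 0 of 21 windows of adipocyte identity genes, 0 of 44 of pro-adipogenic transcription factors and 0 of 25 of triglyceride and lipid droplet genes. Thermogenic genes had it in 1 of 13 windows and fatty acid synthesis genes in 1 of 16. These pairs of motif and list were chosen after the shares were seen, and several of the lists were drawn up from genes known as targets of the factor concerned.

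Over the whole comparison the same motifs differed little. The C/EBP motif was in 2.20% of windows of genes over 2-fold higher and 1.75% of those over 2-fold lower, NF-Y in 39.9% and 36.5%, TEAD in 13.4% and 15.1%, E2F in 3.73% and 4.24%, the TATA motif TATAAA in 10.05% and 8.89% against 7.89% of all, and the SP1 motif GGGCGG in 53.9% and 51.7% against 58.2%. The direct repeat of AGGTCA with 1 base between, the form PPARγ binds, was in 6 of all windows when the exact letters were required, which says only that these letters are rare in windows of this size.

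**Figure D4:**
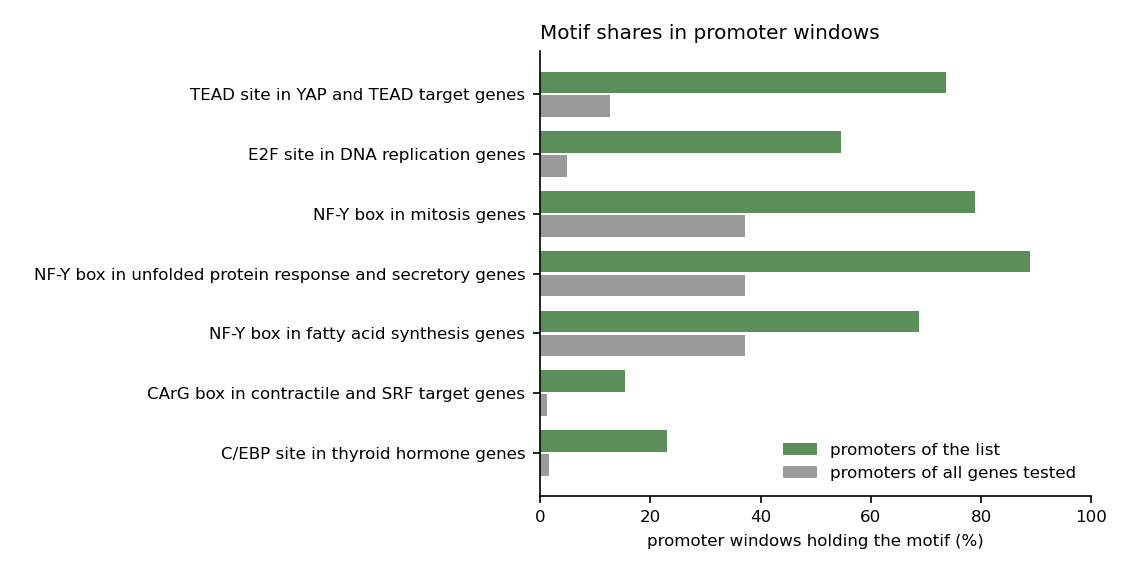
Share of RefSeq promoter windows that hold a motif on either strand, for 7 pairs of a motif and a gene list (green) and for the windows of all genes tested (grey). The TEAD motif in YAP and TEAD genes stands at 73.7% against 12.7%, and the NF-Y box in unfolded protein response genes at 88.9% against 37.1%.

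Promoters from 6 of the pairs plotted, all but fatty acid synthesis, are shown to let the motif be seen in place. They are given as the 200 bases before the start in RefSeq GRCm38.p6, with the motif in capitals. Of the genes shown, Thrsp and Hspa5 rose and Ccnb1 (-3.85 ± 0.22), Mcm5, Cnn2 (-2.62 ± 0.087) and Ajuba (-2.33 ± 0.082) fell. Thrsp lies on the minus strand at chr7:97417551-97417750 and has a C/EBP motif 57 bases before its start, which overlaps an NF-Y motif.
Thrsp: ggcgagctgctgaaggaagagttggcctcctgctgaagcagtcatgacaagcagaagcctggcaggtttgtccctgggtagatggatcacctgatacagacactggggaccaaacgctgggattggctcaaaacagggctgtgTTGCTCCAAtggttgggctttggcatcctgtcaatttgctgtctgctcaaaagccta
Hspa5, on the plus strand at chr2:34771890-34772089, has NF-Y motifs 186, 98 and 65 bases before its start.
Hspa5: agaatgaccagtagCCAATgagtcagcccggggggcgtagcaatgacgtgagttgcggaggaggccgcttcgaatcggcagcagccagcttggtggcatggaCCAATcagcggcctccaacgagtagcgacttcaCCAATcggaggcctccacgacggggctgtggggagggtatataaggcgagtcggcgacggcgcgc
Ccnb1, on the minus strand at chr13:100786487-100786686, has NF-Y motifs 99 and 67 bases before its start.
Ccnb1: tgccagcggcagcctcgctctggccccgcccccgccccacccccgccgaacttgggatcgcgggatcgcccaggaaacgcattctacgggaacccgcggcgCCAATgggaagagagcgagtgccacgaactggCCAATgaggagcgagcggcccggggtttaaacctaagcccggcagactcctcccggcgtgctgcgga
Mcm5, on the plus strand at chr8:75109309-75109508, has overlapping E2F motifs on both strands 153 and 149 bases before its start.
Mcm5: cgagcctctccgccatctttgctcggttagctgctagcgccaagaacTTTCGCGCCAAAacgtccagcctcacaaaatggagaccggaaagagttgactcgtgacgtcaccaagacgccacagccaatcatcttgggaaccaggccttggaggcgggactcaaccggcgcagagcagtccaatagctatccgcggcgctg
Cnn2, on the plus strand at chr10:79988400-79988599, has a CArG box 56 bases before its start.
Cnn2: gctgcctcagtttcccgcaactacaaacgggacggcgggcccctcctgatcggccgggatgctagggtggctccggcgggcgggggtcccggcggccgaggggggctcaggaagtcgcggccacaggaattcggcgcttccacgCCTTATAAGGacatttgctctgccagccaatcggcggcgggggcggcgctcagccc
Ajuba, on the minus strand at chr14:54577662-54577861, has TEAD motifs 186 and 164 bases before its start.
Ajuba: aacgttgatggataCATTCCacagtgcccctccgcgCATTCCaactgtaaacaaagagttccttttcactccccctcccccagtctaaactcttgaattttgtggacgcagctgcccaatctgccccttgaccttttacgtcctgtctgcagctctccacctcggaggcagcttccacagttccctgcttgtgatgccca

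Proliferation genes fell steeply. All 24 mitosis genes fell over 2-fold, with a median log2 fold change of -3.60, and their summed level went from 850 to 935 CPM to 54.0 to 88.2 CPM. Mki67, the standard marker of cycling cells, was at 226, 252 and 249 CPM before and 7.98, 10.5 and 16.6 CPM after. Of 26 DNA replication genes, 23 fell and 1 rose, with smaller changes (median -1.62). Uhrf1 (-3.70 ± 0.097), the helicase subunit gene Mcm5 (-3.61 ± 0.076) and Tk1 (-3.49 ± 0.11) fell most, Ccne1 rose by 0.58 ± 0.15, a call lost with total count scaling, and Rfc4 (0.28 ± 0.15) and Ccne2 (-0.34 ± 0.16) were not called. Among 22 cell cycle inhibitors and p53 targets, 10 rose and 7 fell, but 11 fell with upper quartile and 12 with total count scaling, while 10 rose in each. Cdkn1a (p21) went from 191 to 195 CPM to 419 to 433 CPM, Cdkn2c (p18) from 24.1 to 26.3 CPM to 67.6 to 77.3 CPM and Rb1 from 37.1 to 40.7 CPM to 76.5 to 86.8 CPM.

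Genes for making protein did not share the steep fall of the cell cycle genes. All 24 ribosome biogenesis genes rose, by a median of 0.75, and Myc, which drives this set and proliferation alike, went from 16.1 to 19.6 CPM to 76.9 to 86.0 CPM. Of 81 cytosolic ribosomal protein genes, 22 rose and 19 fell with a median of -0.02, and with total count scaling 8 rose and 60 fell. Of 38 proteasome subunit genes, 33 rose and 3 fell. In the secretory pathway, 19 of 23 unfolded protein response and secretory genes rose and 2 fell. Hspa5 (BiP), the chaperone of the endoplasmic reticulum, was at 618, 632 and 638 CPM before and at 2983, 2120.1 and 2129.9 CPM after, highest in differentiated replicate 1, and Ero1l, the oxidase that drives disulfide formation there, went from 42.6 to 46.2 CPM to 1792, 2453 and 2417 CPM. Without differentiated replicate 1, 19 genes of this list rose, 4 fell and the median was 0.94 in place of 1.15.

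Stress defense and degradation were less uniform. Of 29 antioxidant and glutathione genes, 19 rose and 9 fell, with Sod2, the mitochondrial superoxide dismutase, going from 49.9 to 53.9 CPM to 583 to 869 CPM and Nqo1 falling by 1.81 ± 0.17. Of 25 lysosome and autophagy genes, 12 rose and 13 fell, against 7 and 14 with total count scaling. The cathepsin genes Ctsd (-1.38 ± 0.050) and Ctsb (-1.35 ± 0.060) were lower while Sqstm1 (1.10 ± 0.047) was higher. Macrophage markers moved with the cathepsin genes, as given below, and their part in these falls was not tested.

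Markers of the progenitor and its stroma were lower, but to very different degrees. Of 29, 24 fell and 3 rose (median -1.80), and Cd44 (0.07 ± 0.20) and Pdpn (0.08 ± 0.11) were not called. Pdgfra and Pdgfrb, receptors that mark fat progenitors, went from 527 to 568 CPM to 143 to 192 CPM and from 352 to 380.5 CPM to 77.3 to 87.9 CPM. Cd34 (-2.63 ± 0.13) and Dpp4 (-3.05 ± 0.37) fell from low levels, with Dpp4 under 0.6 CPM in every library, whereas Ly6a (Sca-1) went only from 76.9 to 88.2 CPM to 41.4 to 47.2 CPM. The cadherin gene Cdh11 fell from 654 to 688 CPM to 51.0 to 57.2 CPM. Cd55 (1.45 ± 0.20) and Nt5e, which encodes CD73 (2.87 ± 0.47), rose. Transcripts of Pdgfra, Pdgfrb and Ly6a thus stayed readily measurable at day 6.

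Genes of the other mesenchymal lineages were few and mostly lower. Of 5 osteogenic markers tested, 3 fell and 2 rose, with Spp1 (osteopontin), which macrophages also make, going from 1488 to 1498 CPM to 76.7 to 108 CPM and Runx2 falling by 0.95 ± 0.067. Of 9 chondrogenic and tendon markers, 7 fell and 2 rose. Tnmd, a tendon membrane protein also made by fat progenitors, was at 5.82 to 6.25 CPM before and at 0.0753 CPM or less after, and the cartilage factor Sox9 fell while Sox5 (2.15 ± 0.11) and Sox6 (1.43 ± 0.16), its partners in cartilage, rose. Of 4 myogenic markers 3 fell and 1 rose.

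Most genes of Wnt signalling, known to restrain adipogenesis, fell. Of 41 genes, 28 fell and 6 rose. Sfrp1, a secreted Wnt antagonist, was at 2842, 2529.7 and 2632 CPM before and at 26.6, 46.9 and 63.2 CPM after (log2 fold change -5.86 ± 0.30). Lgr5, the R-spondin receptor, went from 40.1 to 43.9 CPM to 0.338 to 0.691 CPM, and the genes of the Dickkopf proteins Dkk3 (-5.89 ± 0.17) and Dkk2 (-5.13 ± 0.29) fell as steeply. The steepest falls thus held antagonists as well as a receptor. Fzd4 (1.49 ± 0.053) and the Wnt inhibitor gene Apcdd1 (2.06 ± 0.12) rose, and Axin2, a common readout of the canonical pathway, was not called (0.37 ± 0.22). Sfrp5, an adipocyte-derived Wnt antagonist, had 2 counts in all and was not tested.

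In Hedgehog signalling, 9 of 13 genes fell and 1 rose. The coreceptor gene Gas1 (-4.03 ± 0.12), the coreceptor gene Cdon (-2.95 ± 0.051) and the transcription factor gene Gli2 (-2.64 ± 0.16) fell, and Ptch1, the receptor, rose by 0.85 ± 0.086. Of 23 TGF-β and activin genes, 14 fell and 5 rose, with the ligand genes Tgfb3 (-3.77 ± 0.19) and Gdf11 (-3.71 ± 0.14) lower and the receptor gene Acvr1c (ALK7), a receptor of fat cells, going from 0.149 CPM or less to 105 to 126 CPM. Of 25 BMP genes, 16 fell and 5 rose, with Id4 (-4.02 ± 0.16), Gdf10 (-3.23 ± 0.38), Smad9 (-2.76 ± 0.16) and Bmpr1b (-2.60 ± 0.27) lower and the antagonist gene Chrdl1 (2.79 ± 0.097) and the ligand gene Bmp3 (1.43 ± 0.16) higher. Of 16 Notch genes, 7 fell and 5 rose, a split near that over all genes, with Hes1 (-1.67 ± 0.15) lower and Notch1 (0.28 ± 0.063) higher, a call lost with upper quartile and total count scaling.

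Growth factor genes changed hands. Of 27 FGF, PDGF and EGF genes, 17 fell and 9 rose. Fgf21, a metabolic hormone, went from 0.792 to 0.98 CPM to 14.2 to 17.4 CPM, and Ereg, an EGF receptor ligand, from 0.631 to 0.836 CPM to 41.36, 19.02 and 15.72 CPM in differentiated replicates 1, 2 and 3. Fgf18 (-4.32 ± 0.19), Nrg1 (-4.08 ± 0.12) and Pdgfd (-3.26 ± 0.24) fell. Of 19 angiogenic factors, 11 fell and 7 rose. Apln (apelin) went from 2.69 to 3.31 CPM to 121 to 161 CPM, and Vegfd from 175 to 184 CPM to 16.5 to 24.2 CPM. Of 30 axon guidance and neurotrophic genes, 22 fell and 4 rose. Slit2 went from 709 to 732 CPM to 37.3 to 55.6 CPM and its receptor gene Robo2 from 65.3 to 67.7 CPM to 1.45 to 2.22 CPM. Nrg4, a neuregulin secreted by brown fat, rose by 5.75 ± 0.18, and Sema3g went from 0.531 to 0.697 CPM to 28.3, 60.4 and 64.6 CPM, lowest in differentiated replicate 1.

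Imprinted genes of the growth network were lower, with 17 of 20 falling and 3 rising. Plagl1 went from 233 to 248 CPM to 11.9 to 17.5 CPM, and the noncoding RNAs Rian (-3.67 ± 0.20) and Mirg (-3.36 ± 0.19) of the Dlk1 region fell more than Dlk1 itself. Peg10 went from 16.66 to 17.96 CPM to 82.2, 179 and 213 CPM. The counts of 17 and 3 were the same without differentiated replicate 1, which had the lowest summed level of the list.

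Immune gene lists differed in direction. Macrophage markers mostly fell and interferon-stimulated genes mostly rose, while chemokine, cytokine and complement genes went both ways. Of 14 macrophage markers, 12 fell and the remaining markers were not called, and their summed level went from 5988 to 6158 CPM to 1011, 581 and 666 CPM in differentiated replicates 1, 2 and 3. Lyz2 (lysozyme) went from 2448, 2259 and 2322 CPM to 299, 135 and 150.01 CPM and Mrc1, the mannose receptor, from 1300.4 to 1432 CPM to 37.5 to 52.3 CPM. Adgre1 (F4/80), a defining macrophage gene, was not called, with means of 223 and 192 CPM (-0.22 ± 0.21), nor was Cd14 (0.39 ± 0.21). Ptprc, which encodes CD45, fell from 124 to 151 CPM to 22.0 to 41.5 CPM. Without differentiated replicate 1, 13 of the 14 markers fell. Undifferentiated cultures therefore held a sizable macrophage signal, and steep falls of genes that macrophages express, such as P2ry13 and Cst7, moved with it. The part of these cells in any single fall was not tested.

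Interferon-stimulated genes rose, with 14 of 21 higher and 2 lower. Their summed level was 1365 to 1427 CPM before and 3005, 2271 and 1979 CPM after. Rsad2 (viperin) was at 41.5, 21.3 and 20.5 CPM after differentiation and 2.62 to 3.40 CPM before, and Ifit1 at 78.9, 35.5 and 35.8 CPM against 9.60 to 12.3 CPM. Differentiated replicate 1 had the highest sum of both the interferon and the macrophage lists in its group, and without it 14 interferon-stimulated genes rose and 3 fell (median 1.17 in place of 1.37). Of 26 chemokines and cytokines, 14 rose and 11 fell, 13 and 9 of them over 2-fold, and the steepest fall was -4.06 on the log2 scale. Their summed level fell, from 2880 to 2981 CPM before to 1778, 1325 and 1281 CPM in differentiated replicates 1, 2 and 3. The steepest fall was that of Spp1, from a mean of 1492 to 89.6 CPM, and this single gene made up most of the fall in the sum. Cxcl1 went from 2.02 to 2.09 CPM to 75.4 to 91.9 CPM and Cxcl2 from 0.282 to 0.374 CPM to 54.1 to 88.4 CPM, both neutrophil attractants, and Cxcl10 was at 103, 29.7 and 32.6 CPM. Of 17 complement genes, 5 rose and 9 fell, and C3, the central component, went from 112 to 120.0 CPM to 1391, 1118 and 855 CPM. Without differentiated replicate 1, 5 complement genes rose and 10 fell.

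**Figure D5:**
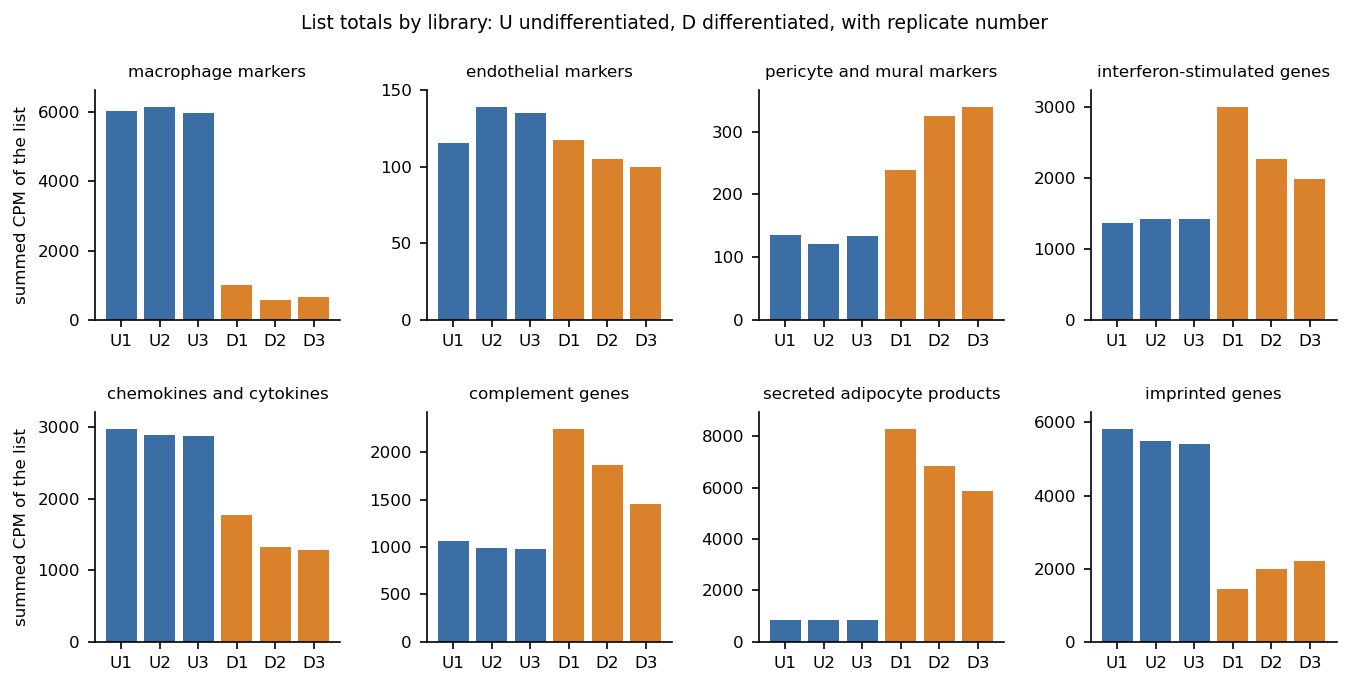
Summed CPM of 8 gene lists in each library, as bars from 0, with undifferentiated replicates 1 to 3 (U, blue) and differentiated replicates 1 to 3 (D, orange). Macrophage markers stand near 6000 CPM in the undifferentiated libraries and at or below 1011 CPM in the differentiated ones, and differentiated replicate 1 is the highest of its group for macrophage, interferon, chemokine, complement and secreted lists and the lowest for imprinted and mural lists.

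Markers of other cells that SVF cultures can hold were low. Endothelial markers summed to 116 to 139 CPM before and 100.2 to 117 CPM after, 8 of 12 fell and 2 rose, and Pecam1, which encodes CD31, was below 1 CPM in every library (-1.07 ± 0.48, adjusted p = 0.074; the call appeared with other settings). Vwf (-4.34 ± 0.15) and Kdr (-2.43 ± 0.29) fell, and Flt1 rose by 1.52 ± 0.073. Mural markers summed to 121 to 135 CPM before and 240, 326 and 340 CPM after, with Cspg4 (NG2) rising from 8.39 to 10.1 CPM to 58.1 to 67.7 CPM and Kcnj8 falling by 5.80 ± 0.27. Of 9 Schwann cell and melanocyte markers, 4 fell, none over 2-fold, and 1 rose. Lymphocyte and mast cell markers summed to at most 1.53 CPM, erythroid markers to at most 0.338 CPM, epidermal markers to at most 6.47 CPM, mesothelial markers to at most 16.6 CPM and neutrophil markers to at most 18.9 CPM in any library.

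By fold change alone the extremes were genes switched on from zero and genes shut off. Apart from genes given above, the 15 largest rises included Lgals12 (galectin-12, a lipid droplet lectin; at least 4567-fold higher), Scd3 (at least 4539-fold), Paqr9 (at least 3182-fold), Aldh3b2 (at least 2974-fold), Ffar2, a receptor for short-chain fatty acids (at least 1801-fold), and Gm10851 (at least 1472-fold), all without a count in undifferentiated libraries. The 15 largest falls were led by Kcns1, a potassium channel subunit gene, from 9.82 to 12.5 CPM to no count in any differentiated library (at least 434-fold lower). C1qtnf3 (cartonectin) went from 93.1 to 108 CPM to 0.113 to 0.324 CPM, Scg2 (secretogranin II) from 86.2 to 105 CPM to 0.432 to 0.715 CPM, Ptn (pleiotrophin), a growth factor of progenitors, from 557 to 673 CPM to 2.33 to 5.78 CPM, and Nxpe5 from 170.1 to 175 CPM to 0.799 to 0.993 CPM.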

How the data were processed

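RNA of primary SVF cells was measured by RNAseq. Per the methods and labels, libraries were depleted of ribosomal RNA, reads were trimmed with Trim Galore 0.6.7 and aligned with STAR to GRCm38 (mm10), and the authors deposited raw counts per gene, 1 table per library, not normalized. STAR's own counting and HTSeq are both named, and the annotation release and strand setting are not given in the sources used here, so genes that overlap on opposite strands may share counts.

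Counts were analysed in R 4.3.3 with edgeR 4.0.16 (which loads limma 3.58.1). DESeq2 1.42.0 served as another test. The count minimum was 5 in 3 or more of the 6 libraries, which left out 15465 identifiers. edgeR's quasi-likelihood test was fitted after TMM normalization (biological coefficient of variation 0.0855), and p-values were adjusted over all genes by the Benjamini-Hochberg method. Levels are CPM on TMM library sizes. The script was tested on simulated data. The 3 libraries per group limit precision, and intervals and limits from counts cover counting error only. A group without a count was set to 3 counts for fold limits. Positions and overlaps are from GENCODE M21 and symbols were found for 32158 identifiers. The 56 lists, 20 symbol families and the rule for named genes (the 15 largest rises and falls, up to 4 and 2 genes per list, the 10 largest gains and losses in CPM and 27 fixed genes, with the largest rise and fall per family) were chosen with earlier results of these data known. Genes named as not called and promoters printed were picked after their values were seen. Some genes are not reported here.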

Additional observations from a re-analysis of the deposited data

How the results depend on the processing

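The number of genes called was 13103 with DESeq2's size factors in edgeR (RLE), 13174 with upper quartile and 13248 with total count scaling, 13386 without a filter, 12603 with at least 10 counts in all 3 libraries of a group, 12655 with DESeq2, 13244 with all 9 libraries in 1 fit and 13087 without mitochondrially encoded genes. A test against a fold of 2 called 5617, with 2472 higher and 3145 lower. Some list counts moved by over 1.5 times. With total count scaling 3 Wnt and 3 Notch genes rose in place of 6 and 5, and 3 clock genes and 2 caveolae genes fell in place of 1 each. With upper quartile scaling 9 cytosolic ribosomal protein genes rose and 51 fell in place of 22 and 19. Without differentiated replicate 1, 4 Adamts genes and 5 kinesin genes rose in place of 2 and 3. Leaving out 1 library gave 12188 to 13524, the highest without differentiated replicate 1. With total count scaling 11709 of the 11743 genes called in both fits kept their direction, and in each of the others all genes called in both did. The share of counts in the 100 most abundant genes differed by 1.12 points, by -1.17 without mitochondrially encoded genes, and by 1.02 to 1.28 without each library in turn. The labels number the replicates in both groups, but deviations of same-numbered libraries correlated at -0.048, -0.038 and 0.024, so the numbers were not taken as pairs; with a replicate block 12611 genes were called. Medians of Slc genes and Nr nuclear receptors changed sign, from 0.13 each to -0.01 each with upper quartile and to -0.10 and -0.11 with total count scaling. Without differentiated replicate 1 the medians of Rgs genes and neutrophil markers changed sign, from -0.17 to 0.13 and from 0.52 to -0.29. Over named genes, 4946 alternative values kept the call, 8 gained and 6 lost it, and no called gene turned direction. The design confounds differentiation with the medium, and undifferentiated cultures with macrophage content.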

Other observations

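Gene families defined by symbol are given by their counts, to be read against 38.4% higher and 39.4% lower over all genes tested. Of 58 protocadherin genes, which encode cell adhesion proteins, 52 fell and 1 rose (median -1.30 on the log2 scale), and Pcdh18 went from 98.1 to 101 CPM to 3.54 to 4.67 CPM. Of 355 Zfp zinc finger genes, 180 fell and 78 rose (median -0.22; 234 and 43 with total count scaling). Of 44 potassium channel genes, 21 fell and 10 rose. Of 42 mitochondrial carrier (Slc25) genes, 27 rose and 7 fell, led by Slc25a34, from 0.088 to 0.152 CPM to 58.0 to 74.1 CPM. Of 56 Rab genes, 29 fell and 17 rose, and Rab7b went from 63.7 to 67.4 CPM to 9.63 to 10.8 CPM. Of 26 Fox genes, 17 fell and 6 rose, among them Foxo1, from 20.7 to 22.7 CPM to 79.0 to 83.3 CPM. Of 15 Klf genes, 8 fell and 5 rose, and Klf12 went from 16.4 to 17.3 CPM to 0.565 to 0.654 CPM. Of 14 Sox genes 6 fell and 3 rose, of 19 Rgs genes 8 fell and 6 rose, of 24 cytochrome P450 genes 12 rose and 9 fell, of 15 snoRNA host genes 9 rose and 5 fell, of 233 Slc genes 103 rose and 90 fell, and of 15 Nr nuclear receptor genes 7 rose and 5 fell.

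By annotated class, 40.6% of 14526 protein-coding genes were called higher and 40.4% lower, and of 747 lincRNA genes 23.7% were higher and 37.2% lower.

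The 9 T cell receptor alpha variable (Trav) genes tested had 364 to 455 counts in sum per undifferentiated library and 0 to 3 per differentiated one. Trav13-4-dv7 had 114, 120 and 154 counts, then 0, 0 and 2. The constant gene Trac had 23, 14 and 35 counts and then 0, 0 and 1, while Cd3d, Cd3e and Cd3g, genes of the T cell receptor complex, had 0 counts in all 6 libraries. These genes were picked after their values were seen.

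The most abundant gene model was Gm26917, at 63323 to 65258 CPM in undifferentiated and 70236 to 74862 CPM in differentiated libraries (0.18 ± 0.077, adjusted p = 0.063). It was called with DESeq2, without the filter and without differentiated replicate 1, and its fold change was -0.05 with total count scaling.

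Cidea and A530016L24Rik, on chromosomes 18 and 12, had 2857, 5548 and 5824 and 2856, 5557 and 5823 counts in the differentiated libraries. Among the 6417 genes with a mean over 1000 counts in these libraries, 245 pairs lay within 10 counts of each other in each of the 3.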
